A study of Mus musculus with 90 samples.

Results

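A set of 10 genes that mark brain endothelial cells or build the blood-brain barrier was followed through 90 RNA-seq libraries of amygdala, hypothalamus and frontal cortex from male mice. The genes were Pecam1, Cd34, Flt1, Ly6a, Ly6c1, Cldn5, Ocln, Abcb1a, Abcg2 and Cav1. They were found by matching the Ensembl identifiers of the count table to these symbols, which gave 10 rows of 37991. These genes were picked because several of them had lower counts in hypothalamus 120 min after exposure to an intruder than in its control. The hypothalamus values at that time are therefore given as a description. No p is given for them, and which genes passed the threshold there only describes the choice. All 10 genes passed the filter on low counts in every comparison. All 20 further endothelial identity genes, among them Cdh5, Tie1, Tek, Kdr and Esam, had reads in all 90 libraries.

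The animals were resident C57BL/6J males that had lived with a female to establish a territory. In the intruder groups a caged BALB/cJ male was put into the resident's cage for 5 min. In the control groups the same wire cage held a paper cup. The residents then rested in the dark and were killed 30, 60 or 120 min later. The 18 groups held 5 libraries each, apart from hypothalamus controls at 30 min with 3 and both frontal cortex groups at 120 min with 6. The labels give each library a region, time, condition and replicate number. Libraries of different regions with the same time, condition and number were taken as 1 animal. That gives 32 animals in all, of which 28 gave all 3 regions. The series text also says that RNA samples were pooled to make libraries, and how is not given in the sources used here. No genotype other than the wild-type strain, no age and no perfusion of the brain is given, and both conditions shared the removal of the female before testing.

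Brain capillaries are lined by endothelial cells that seal the gaps between them with tight junctions, which distinguishes them from the leaky vessels of most organs. These cells carry few caveolae and export many drugs and toxins back into the blood through ATP-driven pumps. Capillary endothelium is a small share of brain tissue, and in the median eminence of the hypothalamus the vessels are fenestrated and lack this seal. In dissected tissue, a lower level of endothelial transcripts can mean fewer endothelial cells or less RNA in each, and these cannot be told apart here.

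The 10 genes fall into 4 roles, and RefSeq windows of the 250 bases before the transcription start were at hand for 8 of them, in 13 windows of build GRCm38.p6. A window is shown for 1 gene of each of 4 kinds described below. Cd34 is the gene that differed most between regions, Ly6c1 the gene with the lowest p in amygdala, Cldn5 the gene with the highest correlation between regions of an animal, and Abcb1a the gene with the largest difference in hypothalamus. Capitals mark matches on either strand to 6 motifs. The cores read by ETS factors such as ERG and FLI1 were searched as CCGGAA and as AGGAAG. The GC box was searched as GGGCGG and the TATA box as TATAAA. The TCF/LEF motif was CTTTGAT and the forkhead motif was GTAAACA. A capital run longer than a motif holds overlapping matches.
Cd34 chr1:194938571-194938820 (+ strand): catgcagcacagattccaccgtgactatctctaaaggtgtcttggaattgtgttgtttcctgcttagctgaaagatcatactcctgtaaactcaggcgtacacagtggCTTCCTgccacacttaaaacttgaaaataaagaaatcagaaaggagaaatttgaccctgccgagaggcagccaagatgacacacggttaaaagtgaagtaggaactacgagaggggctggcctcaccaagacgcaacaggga
Ly6c1 chr15:75048838-75049087 (- strand): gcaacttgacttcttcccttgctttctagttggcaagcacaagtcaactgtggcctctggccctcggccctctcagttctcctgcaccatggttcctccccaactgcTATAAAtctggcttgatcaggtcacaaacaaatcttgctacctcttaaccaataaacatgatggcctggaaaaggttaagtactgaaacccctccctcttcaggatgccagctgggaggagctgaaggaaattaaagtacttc
Cldn5 chr16:18776597-18776846 (+ strand): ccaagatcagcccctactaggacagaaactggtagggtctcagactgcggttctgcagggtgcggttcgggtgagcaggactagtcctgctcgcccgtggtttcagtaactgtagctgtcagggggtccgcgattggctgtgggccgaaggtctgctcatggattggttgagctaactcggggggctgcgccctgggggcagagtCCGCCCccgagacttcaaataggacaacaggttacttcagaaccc
Abcb1a chr5:8566841-8567090 (+ strand): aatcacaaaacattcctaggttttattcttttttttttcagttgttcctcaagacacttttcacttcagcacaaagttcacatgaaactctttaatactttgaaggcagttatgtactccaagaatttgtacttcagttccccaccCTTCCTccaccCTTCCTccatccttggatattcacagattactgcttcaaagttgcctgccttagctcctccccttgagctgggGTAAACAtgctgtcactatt

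AGGAAG or its reverse complement occurred in windows of 5 of the 8 genes (Cd34, Abcb1a, Flt1, Abcg2 and Ly6c1). By window that was 7 of 13, against 29.5% of 32817 mouse windows of the same length. GGGCGG occurred in windows of 5 genes (Flt1, Cav1, Abcg2, Ocln and Cldn5), also 7 of 13 windows, against 32.7% of all windows. The Ly6c1 window printed above holds TATAAA alone, and its AGGAAG matches lie in the other Ly6c1 window. Windows of 1 gene can overlap and are not independent. TATAAA occurred for Flt1, Cav1 and Ly6c1 (12.4% of all windows), CCGGAA for Ocln alone (12.0%), GTAAACA for Abcb1a alone (3.2%) and CTTTGAT for none (3.2%). The Cldn5 window was 59.6% G+C, the Cd34 window 46.4% and the Abcb1a window 40.4%, with a median of 52.4% over all windows. A match is a description of the letters, not of a factor's binding.

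Libraries held 38601039 to 58858458 reads on genes. No pair of libraries within a group agreed within counting noise. Levels are given as CPM, the reads of a gene per 1000000 reads on genes that passed the filter on low counts. The read totals were scaled by edgeR's TMM factors, on 1 scale for all libraries. Differences are log2 fold changes from edgeR's quasi-likelihood fit of a region with their standard error (SE), and a gene counts as called when its p, adjusted over all genes tested, was below 0.05. The header of every 30 min library carries another tag than that of every 60 and 120 min library, and the meaning of the tag is not given, so 30 min against later times cannot be told apart from what the tag marks.

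Per kilobase of exon, 3 of the 10 genes (Ly6c1, Cldn5 and Ly6a) led in every region, and Cd34 moved from the lowest place in hypothalamus to just behind them in frontal cortex. In hypothalamus controls (n = 13) the highest mean levels, in CPM per kilobase, were those of Ly6c1 (13.8 ± 1.28, SD), Cldn5 (12.6 ± 1.55) and Ly6a (12.0 ± 1.01). The spreads of these 3 overlap. Abcb1a followed at 5.17 ± 0.555, then Cav1 at 3.87 ± 0.310 and Flt1 at 3.25 ± 0.311. The lowest levels were those of Pecam1 (2.32 ± 0.218), Ocln (2.18 ± 0.15), Abcg2 (2.11 ± 0.287) and Cd34 (1.98 ± 0.122), whose ranges overlap. In amygdala controls (n = 15) the same 3 genes led, at 16.6 ± 2.62, 16.0 ± 3.75 and 14.9 ± 2.49. In frontal cortex controls (n = 16) Cldn5 and Ly6c1 stood at 20.3 ± 3.02 and 20.9 ± 2.65, Ly6a at 19.2 ± 2.47, and Cd34 ranked next at 14.9 ± 1.79.

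**Figure D1:**
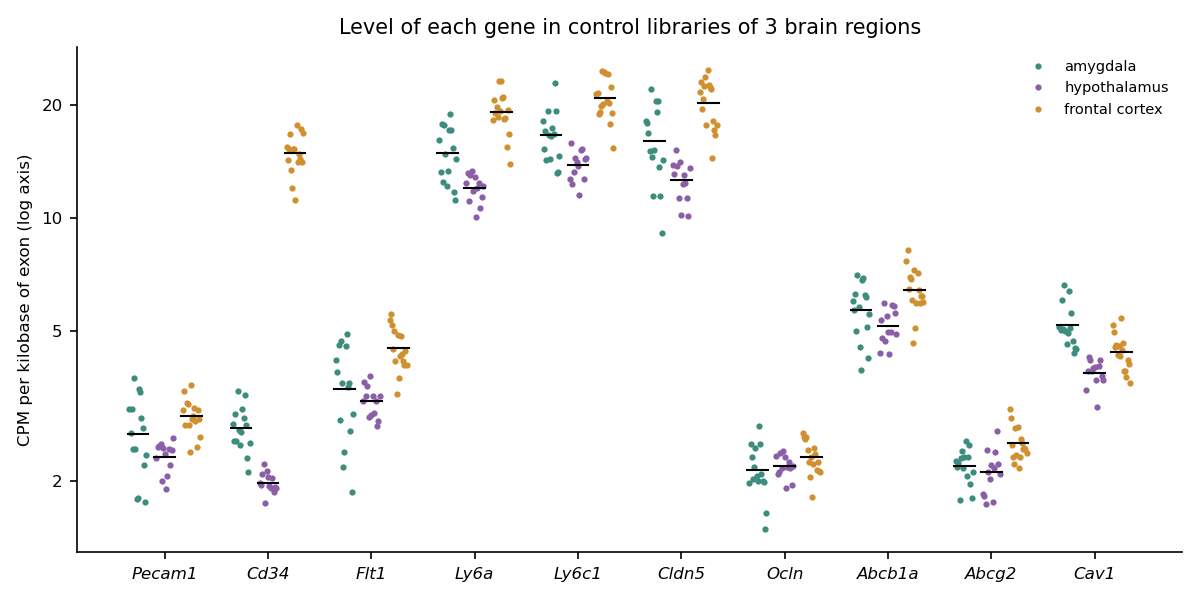
Level of the 10 genes in control libraries, as CPM per kilobase of exon on a log axis. Each point is 1 library (15 of amygdala, 13 of hypothalamus, 16 of frontal cortex) and the black line is the mean. Cd34 in frontal cortex stands clear of both other regions, while the points of the other 9 genes lie close together or overlap between regions.

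Cd34 encodes a heavily glycosylated surface protein of endothelial and blood-forming progenitor cells. Its level in frontal cortex controls ran from 81.4 to 129 CPM with a median of 109. In amygdala controls it ran from 15.4 to 25.2 CPM with a median of 19.9, and in hypothalamus controls from 12.7 to 16.1 CPM with a median of 14.2. The libraries of frontal cortex did not overlap with those of either other region, which held in this direction for 19.8% of all genes against hypothalamus and 6.78% against amygdala. With the animal as a block, Cd34 was lower in hypothalamus than in frontal cortex by a log2 fold change of -2.91 ± 0.073 (SE, adjusted p = 3.5e-25, edgeR) and lower in amygdala by -2.44 ± 0.067 (adjusted p = 4.62e-23). Animals exposed to an intruder, taken in place of the controls, gave -2.91 and -2.40.

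The other 9 genes differed between regions by less than 1 log2 unit. In hypothalamus against frontal cortex, 9 of the 10 genes were called lower, where 40% of all genes tested were called lower and 81.9% were called in either direction. Ly6a and Cldn5 were each lower by -0.68 (SE 0.071 and 0.072), Ly6c1 by -0.60 ± 0.061, Flt1 by -0.45 ± 0.089, Pecam1 by -0.34 ± 0.087 and Abcb1a by -0.30 ± 0.083. Ocln, a tight junction protein, was the member not called (-0.07 ± 0.066, adjusted p = 0.298). With intruder animals in place of controls, which include the 120 min animals of the picking contrast, all 10 were called lower, Ocln at -0.28 (adjusted p = 0.000952), Pecam1 at -0.62 and Abcb1a at -0.59. In amygdala against frontal cortex, 7 genes were called lower and Cav1 higher (0.22 ± 0.054, adjusted p = 0.000732), where 32.5% of all genes were called lower, 34.4% higher and 66.8% in all. Abcb1a was called lower in 4 of 7 alternative fits of this comparison. In amygdala against hypothalamus, 5 genes were called higher, where 35.6% of all genes were. These were Cd34 (0.47 ± 0.070), Cav1 (0.40 ± 0.057), Ly6a and Cldn5 (0.30 each) and Ly6c1 (0.25 ± 0.061). The hypothalamus controls include the 5 of 120 min, which also entered the contrast that picked the genes. With controls of 30 and 60 min alone, the same 9 genes were called lower in hypothalamus than in frontal cortex, with Cd34 at -2.86, Ly6a and Cldn5 at -0.77 and Ly6c1 at -0.69, and the 5 genes higher in amygdala than in hypothalamus were called again. The library names carry 2 index sequences, and no first index was shared between controls of different regions. In controls alone, region and what the index marks cannot be told apart. The first index of amygdala controls at 120 min was also carried by frontal cortex intruders 1 and 2 at 30 min. Cd34 had 15.4 to 24.6 CPM in those controls and 84.9 to 116 CPM in that intruder group. Likewise, frontal cortex controls at 120 min (103 to 126 CPM) shared theirs with hypothalamus intruders 1 and 2 at 30 min (group 14.2 to 15.9 CPM). The part of the index was not tested. With so many genes called between regions, the counts alone set these 10 genes little apart, and the size of the Cd34 difference is what stands out.

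Caveolin-1, the coat protein of caveolae encoded by Cav1, had a regional order of its own. Its mean was highest in amygdala (17.8 ± 2.42 CPM), then frontal cortex (15.2 ± 1.73 CPM) and hypothalamus (13.3 ± 1.07 CPM). Every amygdala control lay above every hypothalamus control for this gene, which held for 11.2% of all genes tested in that direction. Markers of other cell types are given for hypothalamus against frontal cortex, where 81.9% of all genes were called and 40% called lower. There 8 of 8 oligodendrocyte markers were called higher, 8 of 8 microglia markers lower, and 7 of 14 mural markers (pericytes and smooth muscle) lower and 2 higher. Their part in the regional levels was not tested.

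In hypothalamus, all 10 genes had lower mean levels 120 min after the intruder than in the controls of that time, the contrast by which the genes were picked. For 8 of them (all but Flt1 and Cldn5) the 5 intruder libraries all lay below the 5 control libraries, and the same 8 were called lower, where 0.17% of all genes tested were called lower and groups apart in this direction held for 0.809%. A lower mean held for 49% of all genes. With the replicate number as a block 4 of the 8 were called, and with the 2 groups fitted alone 0. Because the genes were chosen on this contrast, nothing is read from these counts. The median log2 fold change of the 10 was -0.50, against 0.003 over all genes.

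Among the surface proteins, the controls of Pecam1, an adhesion molecule of endothelial junctions, had 12.8, 15.1, 13.7, 15.0 and 16.2 CPM. The intruder libraries had 6.86, 8.05, 10.7, 10.3 and 11.1 CPM, a difference of -0.63 ± 0.111 (log2, SE). Intruder animals 1 and 2 were the lowest and no intruder library reached the control range. The controls of Cd34 held within 13.6 and 14.8 CPM, while the intruder libraries had 9.08, 8.69, 10.2, 10.1 and 10.5 CPM (-0.54 ± 0.070). Flt1, the receptor VEGFR1 that binds VEGF and limits its signal, had 40.8, 44.1, 37.7, 39.0 and 45.5 CPM in controls. Its intruder libraries were spread widely, at 19.9, 24.0, 44.5, 28.5 and 39.5 CPM (-0.41 ± 0.146). Intruder animal 3 stood within the Flt1 controls and animal 1 far below them, so the groups overlap. Ly6c1 and Ly6a, small GPI-anchored surface proteins of brain endothelium, differed by -0.56 ± 0.084 and -0.49 ± 0.088. The Ly6c1 controls had 21.3 to 25.6 CPM and its intruder libraries 13.9 to 18.1 CPM.

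Among the transport and junction genes, Abcb1a encodes P-glycoprotein, the main drug efflux pump of the barrier. Its controls had 27.2, 32.1, 32.0, 30.7 and 26.9 CPM and its intruder libraries 12.2, 15.6, 21.8, 16.1 and 21.8 CPM. This was the largest difference of the 10 (-0.77 ± 0.116). Abcg2, the breast cancer resistance protein that works beside P-glycoprotein, differed by -0.46 ± 0.077, with intruder libraries in a narrow band of 13.1 to 14.3 CPM against 17.0 to 22.1 CPM in controls. Claudin-5, encoded by Cldn5, is the protein that seals the junction against small molecules. Its intruder libraries (12.3, 11.4, 14.6, 14.1 and 16.1 CPM) overlapped the controls (18.4, 17.6, 16.0, 14.3 and 19.3 CPM), with a difference of -0.32 ± 0.111. Ocln had the smallest difference of the 8 genes past the threshold (-0.35 ± 0.064), and Flt1 and Cldn5 were the pair just outside, with larger SE. Cav1 differed by -0.50 ± 0.076, from 10.8 to 14.4 CPM in controls down to values in intruder libraries of which the lowest was 8.40 CPM and only animal 6 reached 10 CPM.

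**Figure D2:**
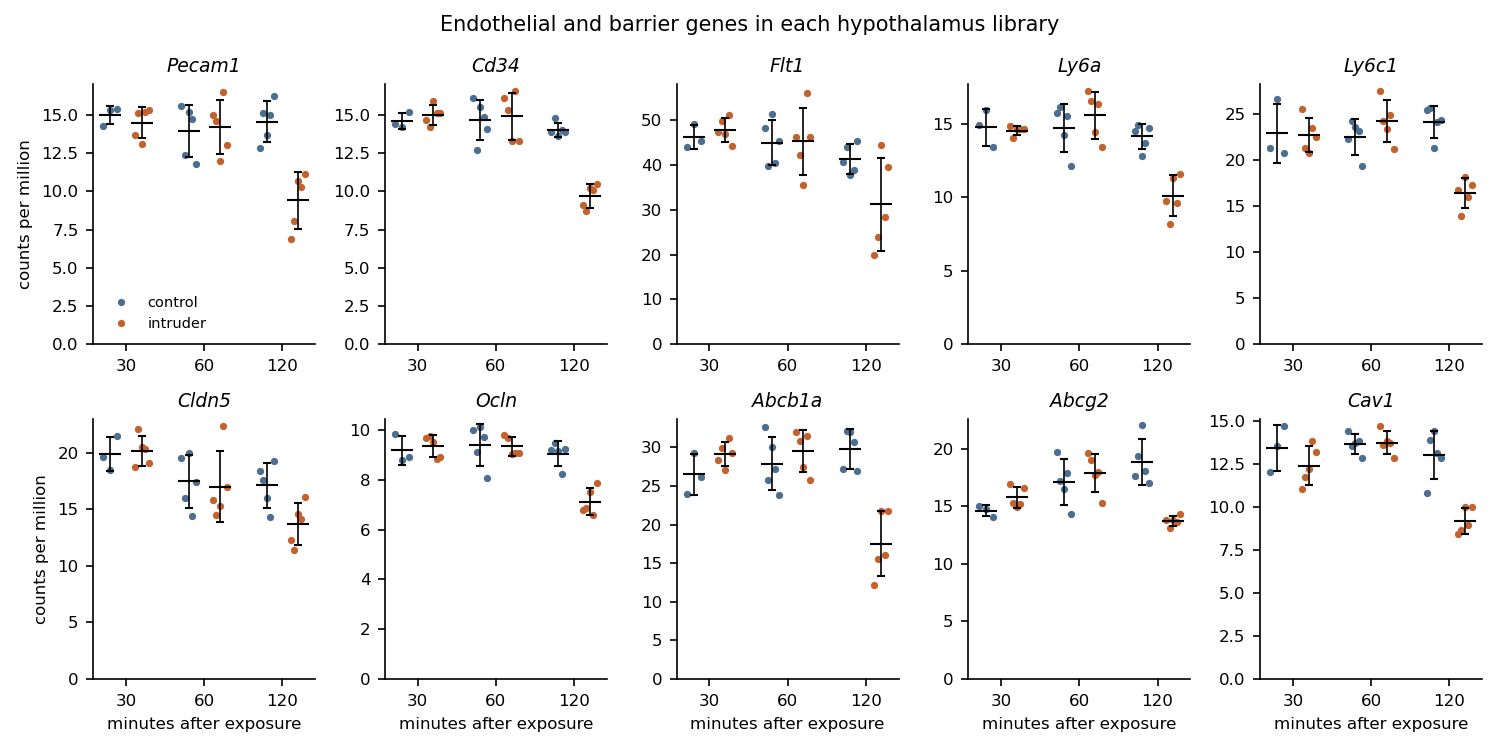
CPM of the 10 genes in each hypothalamus library by minutes after exposure, controls in blue and intruder animals in orange, with the mean and SD in black. The axes start at 0. At 120 min all intruder libraries sit below all controls for 8 genes, as for Abcb1a at 12.2 to 21.8 CPM against 26.9 to 32.1 CPM, and the groups overlap for Flt1 and Cldn5.

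Genes of other vascular cells differed in the same libraries, those of the contrast by which the 10 genes were picked. There 0.17% of all genes tested were called lower and 49% had a lower mean. Of 20 further endothelial identity genes 19 had a lower mean in the intruder group and 2 were called, Ptprb (-0.62 ± 0.119), a receptor phosphatase of endothelium, and Itm2a (-0.47 ± 0.091). Their summed level was 166 to 206 CPM in intruder libraries and 238 to 268 CPM in controls. Among 14 endothelial transcription factors Erg was called lower (-0.66 ± 0.126). Of 18 other barrier transport genes 17 had a lower mean, with Slco1a4, an organic anion transporter, called (-0.45 ± 0.095). None of 11 further junction genes was called (7 lower, median -0.06), nor any of 8 caveola genes, 13 genes of the Wnt pathway that maintains the barrier (11 lower, median -0.05), 14 genes of VEGF and angiopoietin signalling (8 lower, median -0.02) or 5 tested Ly6 relatives. Of 14 mural markers 3 were called lower, the pericyte gene Rgs5 (-0.72 ± 0.097) and, larger, Acta2 and Tagln of smooth muscle at -1.25 ± 0.266 and -1.47 ± 0.303. The lower Rgs5 was known when the lists were chosen. The summed mural level was 141 to 175 CPM in intruder libraries and 204 to 240 CPM in controls. Hemoglobin and other red cell genes were lower in 5 of 5 tested and fibroblast genes in 8 of 8, with medians of -0.57 and -0.94 and none called, and Hba-a1 and Col1a1 were above 0 in all libraries. The summed red cell level was 58.4 to 89.0 CPM after the intruder and 77.2 to 136 CPM in controls. The summed fibroblast level was 111 to 135 CPM against 110 to 269 CPM. Neuron and oligodendrocyte markers had medians of 0.07 and 0.04, with none called, and their groups overlapped. The part of these other cells in the differences of the 10 genes was not tested.

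The first index was shared by all 5 intruder libraries and controls 1, 2 and 3, and differed in controls 4 and 6. Against controls 1, 2 and 3 alone, the log2 ratio of mean CPM was -0.80 for Abcb1a, -0.56 for Pecam1 and -0.54 for Cd34, and all 10 genes kept their sign, with Cldn5 at -0.34 and Flt1 at -0.39.

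At the earlier times in hypothalamus no member was called by edgeR, where 0% of all genes were called at 30 min and at 60 min. None had an unadjusted p below 0.05 at either time (1.92% and 2.22% of all genes had). DESeq2 and limma voom also called none. Log2 fold changes ran from -0.11 (Cav1) to 0.14 (Abcb1a) at 30 min and from -0.03 (Cldn5) to 0.11 (Ly6c1) at 60 min. Abcb1a at 30 min had 24.0, 29.3 and 26.2 CPM in the 3 controls and 27.1 to 31.2 CPM in 5 intruder libraries. No member was called for time in hypothalamus controls (0.181% of all genes were), a comparison that shares its 120 min controls with the contrast that picked the genes and in which no first index was shared between times. Abcg2 was the 1 member with an unadjusted p below 0.05, which 9.88% of all genes had (mean 14.7 CPM at 30 min, 17.1 at 60 min and 18.8 at 120 min, adjusted p = 0.180 with edgeR), and DESeq2 called it (adjusted p = 0.0386). Whether the effect changed with time was not tested in hypothalamus, because the 120 min contrast chose the genes.

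In amygdala at 120 min, Ly6c1 and Ly6a were called lower after the intruder. The rule for the 10 genes names hypothalamus, but the amygdala libraries came from the same animals, and the lower Ly6c1 in amygdala was known when the genes were chosen, so neither its p nor the count of called members is independent support. That is 2 of 10 members, where 0.243% of all genes tested were called lower and 0.538% in either direction. All 10 members had a log2 fold change below 0 (49.8% of all genes had) with a median of -0.36 against 0.001 over all genes. An unadjusted p below 0.05 was reached by 8 members and by 15.1% of all genes.

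Ly6c1 had 38.4, 32.3, 22.1, 22.2 and 24.6 CPM in the amygdala controls and 16.4, 16.5, 18.4, 14.9 and 17.3 CPM in intruder libraries. The groups did not overlap, and controls 1 and 2 were the highest. The difference was -0.74 ± 0.131 (adjusted p = 0.0132, edgeR), lower than the control mean in 5 of 5 animals. Ly6a had 20.7, 18.5, 14.1, 13.5 and 17.3 CPM in controls and 9.84, 10.5, 12.7, 9.46 and 12.4 CPM in intruder libraries. These groups did not overlap either (-0.62 ± 0.145, adjusted p = 0.0444), and groups apart in this direction held for 1.62% of all genes. Without control 1 neither gene was called (Ly6c1 adjusted p = 0.0575, Ly6a 0.194), and without control 2 or 3, or intruder 1, 2, 4 or 6, Ly6c1 alone was. Without control 4, 4 members were called, and DESeq2 also called 4, adding Cd34 and Ocln. Fitting the 2 groups alone called none, with both genes at an adjusted p of 0.211.

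The remaining 8 genes overlapped between the amygdala groups. Cd34 and Ocln came closest to the threshold, at -0.37 ± 0.102 (adjusted p = 0.0856) and -0.36 ± 0.092 (adjusted p = 0.0634). Their intruder libraries had 13.1 to 15.9 CPM and 5.47 to 6.53 CPM, against 15.4 to 24.6 CPM and 6.26 to 8.80 CPM in controls. Cldn5 (-0.45 ± 0.190), Pecam1 (-0.41 ± 0.194), Abcb1a (-0.36 ± 0.155) and Abcg2 (-0.24 ± 0.088) had adjusted p between 0.187 and 0.315. Flt1 (-0.21 ± 0.214) and Cav1 (-0.09 ± 0.116) differed least.

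The index sequence followed the condition in this comparison. All 5 controls and intruder 6 carried 1 first index and intruders 1 to 4 another. For 8 of the 10 genes intruder 6 lay within the range of the controls. Its Abcb1a level was 31.4 CPM, with 23.2 to 34.1 CPM in controls and 20.3 to 22.2 CPM in the other 4 intruder libraries. Its Flt1 level was 42.5 CPM and its Pecam1 level 15.2 CPM, against 8.61 to 12.1 CPM in the other 4 for Pecam1. Ly6c1 (17.3 CPM) and Ly6a (12.4 CPM) were the exceptions, in which intruder 6 was below every control. With the first index as a block no member was called, with Ly6c1 at -0.68 (adjusted p = 0.356) and Ly6a at -0.44 (adjusted p = 0.511), and 4 members changed sign, to 0.02 for Pecam1, 0.07 for Abcb1a, 0.09 for Flt1 and 0.18 for Cav1. For intruders 1 to 4, the intruder and what the index marks cannot be told apart.

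**Figure D3:**
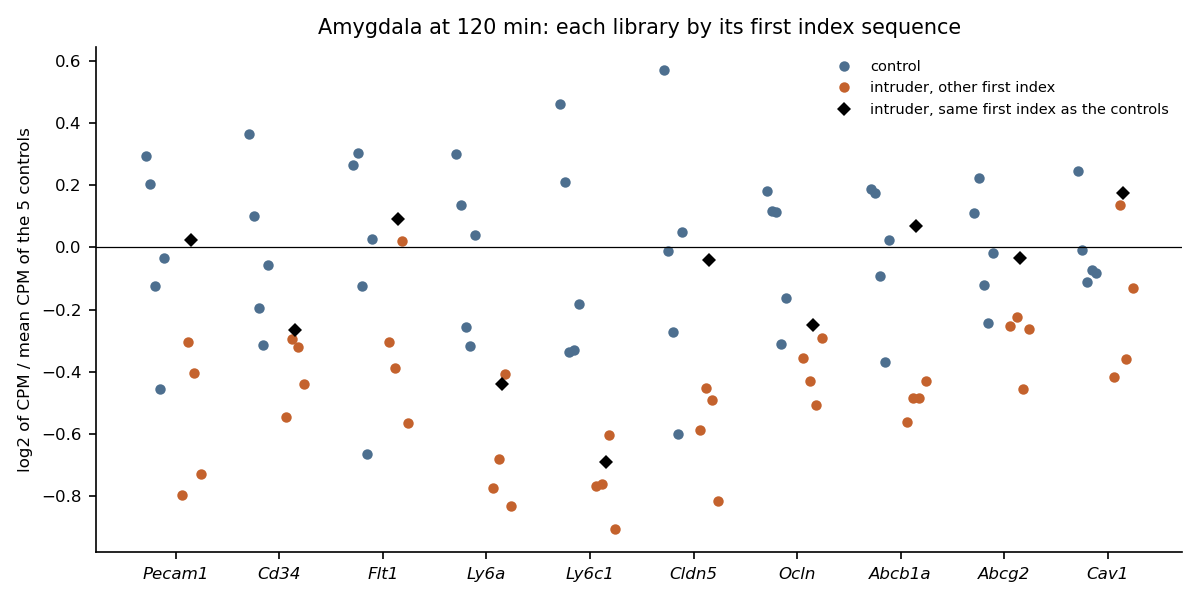
Each amygdala library at 120 min as the log2 ratio of its CPM to the mean of the 5 controls. Blue points are controls, orange points the 4 intruder libraries with another first index, and the black diamond intruder 6, which carries the controls' first index. The diamond lies among the controls for 8 genes and below all of them for Ly6c1 (17.3 CPM) and Ly6a (12.4 CPM).

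Of the other vascular genes in amygdala at 120 min, Pglyrp1, a peptidoglycan recognition protein on the list of other barrier genes, was called lower (-0.86 ± 0.187, adjusted p = 0.0342), as was the pericyte marker Rgs5 (-0.51 ± 0.115, adjusted p = 0.0379). In this contrast 0.243% of all genes tested were called lower, and 49.8% had a log2 fold change below 0. The lower Rgs5 in hypothalamus was known when the lists were chosen. Of 20 endothelial identity genes 18 had a lower mean, with a median of -0.20 and none called. The 14 genes of VEGF and angiopoietin signalling had a median of 0.02 and 5 tested Ly6 relatives a median of -0.22, with none called in either list. The summed mural level overlapped between the groups (196 to 321 CPM after the intruder, 222 to 286 CPM in controls), as did red cells (72.6 to 190 CPM and 90.2 to 166 CPM). Fibroblast markers were higher in 7 of 8 (median 0.59) and oligodendrocyte markers in 8 of 8 (median 0.42), with none called. Their summed levels were 158 to 417 CPM against 141 to 265 CPM, and 3260 to 6820 CPM against 2530 to 5380 CPM. Their part in the result was not tested. Ly6c2, the near-identical neighbour of Ly6c1, had at most 0.161 CPM and was at 0 in 9 libraries, though reads shared by such a pair could be counted for neither.

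At 30 and 60 min in amygdala no member was called (0% of all genes at both times), none had an unadjusted p below 0.05 (2.74% and 7.13% of all genes had), and DESeq2 and limma voom called none. Log2 fold changes ran from -0.08 (Ocln) to 0.09 (Cldn5) at 30 min and from -0.18 (Cldn5) to 0.13 (Abcb1a) at 60 min. At 60 min all 5 intruder libraries and control 1 carried the same first index, and controls 2, 3, 5 and 6 another. Against those controls, the intruder and what the index marks cannot be told apart. The change of the intruder effect with time in amygdala was not called for any member either (0% of all genes). It had an unadjusted p below 0.05 for 4 members and 12.1% of all genes, with the smallest adjusted p for Ly6c1 at 0.140, whose effect at 120 min was 0.77 lower than at 30 min. The test used edgeR, and limma voom called no member. The first index partly followed the condition at 60 and 120 min, which limits this test as well.

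Frontal cortex showed no called member at any time (0% of all genes at each time). Neither DESeq2 nor limma voom called one, and Ocln at 120 min was the 1 member with an unadjusted p below 0.05 (0.16 ± 0.066, adjusted p = 0.851). An unadjusted p below 0.05 was found for 6.28% of all genes at 30 min, 2.54% at 60 min and 5.34% at 120 min. At 120 min Ly6c1 had 25.7 to 40.6 CPM in 6 controls (median 33.0) and 31.7 to 35.4 CPM in 6 intruder libraries (median 33.7). Ocln had 8.91 to 10.3 CPM in controls (median 9.25) and 9.39 to 12.1 CPM after the intruder (median 10.4). Both pairs of groups overlapped. Cd34 differed by -0.22 ± 0.129 at 30 min, -0.12 ± 0.129 at 60 min and -0.09 ± 0.117 at 120 min, with adjusted p from 0.788 to 1 (edgeR). A change of the intruder effect with time was not called for any member (edgeR adjusted p from 0.971 to 0.985, 0% of all genes called, 0 members and 4.45% of all genes with an unadjusted p below 0.05, and 0 members called by limma voom). In frontal cortex at 120 min every control had another first index than every intruder library, so the intruder and what the index marks cannot be told apart there.

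**Figure D4:**
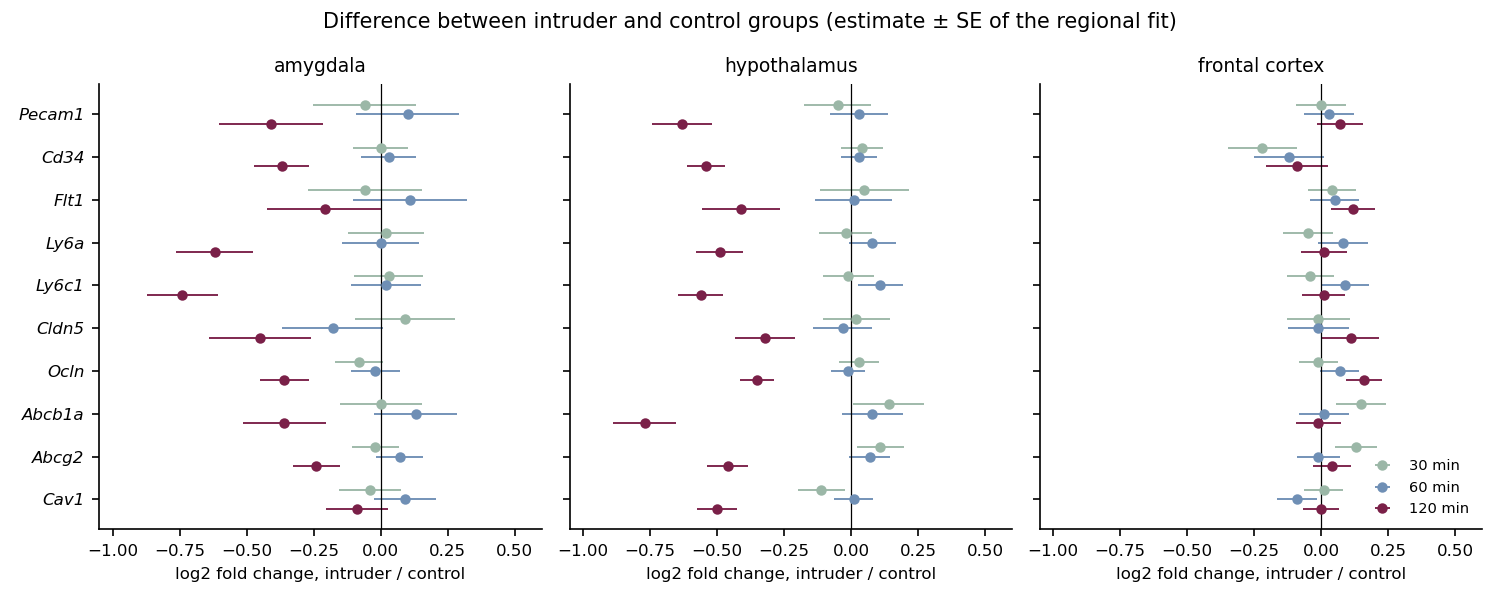
Log2 fold change of intruder over control for the 10 genes at 30, 60 and 120 min in each region, with the SE of the regional fit as bars. At 120 min all 10 estimates lie below 0 in amygdala (median -0.36) and hypothalamus (median -0.50), while in frontal cortex they lie between -0.09 (Cd34) and 0.16 (Ocln). The hypothalamus values at 120 min are those by which the genes were picked.

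The intruder effect at 120 min differed between amygdala and frontal cortex for Ly6c1 and Ocln. Ly6c1 had an effect lower by 0.75 in amygdala (-0.75 ± 0.143, adjusted p = 0.0251, edgeR) and Ocln one lower by 0.52 (-0.52 ± 0.103, adjusted p = 0.0251). That is 2 of 10 members, where 0.0109% of 18337 genes were called. The Ly6c1 difference is nearly all its amygdala effect of -0.74, known when the genes were chosen, so it and the count are no independent support. For Ly6c1 the frontal cortex effect was 0.01 ± 0.080 and for Ocln it was 0.16 ± 0.066, the opposite sign to the amygdala effect of -0.36. Ly6a had the next smallest p of the members without being called (-0.63 ± 0.156, adjusted p = 0.479). Cldn5 (-0.56), Pecam1 (-0.48), Abcb1a (-0.35) and Abcg2 (-0.28) also had an unadjusted p below 0.05, which makes 7 members against 5.19% of all genes. All 10 members had the lower effect in amygdala, as 50.7% of all genes had. With the animal as a block, matched by number across regions, Ly6c1 held at -0.74 (adjusted p = 0.0249) and Ocln did not at -0.51 (adjusted p = 0.102). With limma voom neither passed (0.0519 and 0.0699). Hypothalamus was left out of this contrast because its values picked the genes. The first index follows the condition fully in frontal cortex and in all amygdala libraries but intruder 6. On the frontal cortex side, and for amygdala intruders 1 to 4, the intruder and what the index marks cannot be told apart. At 30 and 60 min a difference of the effect among the 3 regions was not called for any member (edgeR, 0% of all genes called, 0 with limma voom). No member had an unadjusted p below 0.05, which 2.42% of all genes had at 30 min and 3.15% at 60 min.

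Among control animals, 6 members differed between times in frontal cortex, where 33.4% of all genes were called. No first index was shared between the times in these controls, so time and what the index marks cannot be told apart. The 6 genes were Abcb1a, Flt1, Ocln, Cldn5, Ly6a and Cav1. Abcb1a had a mean of 39.7 ± 3.86 CPM (SD, n = 5) at 30 min, 31.8 ± 5.52 CPM (n = 5) at 60 min and 34.6 ± 2.42 CPM (n = 6) at 120 min (adjusted p = 0.0193, edgeR). Flt1 fell likewise from 69.1 ± 5.50 CPM to 55.3 ± 7.67 and 58.3 ± 4.10 CPM (adjusted p = 0.0106), and Ocln from 10.9 ± 0.426 CPM to 8.96 ± 0.839 and 9.43 ± 0.570 CPM (adjusted p = 0.00691). For these 3 the 30 min group was the highest. Cav1 instead was low at 120 min (13.5 ± 0.678 CPM against 16.3 ± 1.21 and 16.1 ± 1.53 CPM, adjusted p = 0.00449), as was Cldn5 (25.1 ± 3.56 CPM against 30.4 ± 1.97 and 31.5 ± 3.89 CPM, adjusted p = 0.0354). Ly6a peaked at 60 min with 26.0 ± 2.08 CPM against 23.2 ± 1.12 and 20.6 ± 2.52 CPM (adjusted p = 0.0149). The Cldn5 call was lost in 8 of the 16 fits that left out 1 control, and the Abcb1a call in 4.

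Markers of other cell types are given for the same frontal cortex controls, where 33.4% of all genes were called for time. The test took all times together, so a call names no pair of times. Of 8 oligodendrocyte markers 8 were called, with estimates higher at 120 than at 30 min. Their summed levels were 3120 to 3990 CPM at 30 min, 4560 to 7070 CPM at 60 min and 3800 to 5970 CPM at 120 min. Of 14 mural markers 5 were called with a lower estimate at 120 than at 30 min. The summed mural level was 283 to 334, 198 to 273 and 240 to 293 CPM. The part of these cell types in the members' differences was not tested. In amygdala controls no member was called for time (0.232% of all genes were). Ocln was the 1 member with an unadjusted p below 0.05 there, which 10.9% of all genes had (edgeR adjusted p = 0.159), and DESeq2 called it (adjusted p = 0.0358).

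Within a group, the members rose and fell together from animal to animal. After removing each group's mean, the deviation of Pecam1 correlated with the mean of the other 9 members at r = 0.90 over 90 libraries, Abcb1a at 0.84, Flt1 at 0.82 and Ly6a at 0.80. Abcg2 (0.48), Ocln (0.54) and Cd34 (0.56) followed the others least. These correlations share libraries and depth and are given as a description. For 9 of the 10 genes (all but Cd34) amygdala libraries varied most, with within-group SDs of log2 CPM of 0.36 for Flt1, 0.32 for Pecam1 and 0.31 for Cldn5, against 0.25, 0.18 and 0.18 in hypothalamus. In the amygdala controls at 120 min all 10 members of control 1 lay above the group mean and all 10 of control 4 below it.

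Cd34 followed the other members closely in amygdala and hypothalamus and weakly in frontal cortex. Its correlation with the mean of the other 9 was 0.90 in amygdala and 0.74 in hypothalamus, and 0.20 in frontal cortex, the region where its level was highest. In frontal cortex its within-group SD was 0.22, the largest of the 10.

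By the same measure, the genes outside the set most like the mean of the 10 over 90 libraries were Tie1 (r = 0.90), Esam (0.88), Eng (0.87), Nos3 (0.87), Adcy4 (0.86), Mmrn2 (0.85), Igfbp7 (0.84), Lsr (0.84), Sema3g (0.84) and Adgrl4 (0.84). Tie1 is an endothelial receptor tyrosine kinase, Nos3 the endothelial nitric oxide synthase and Lsr a protein of tricellular junctions. Over lists, the median r was 0.70 for 20 endothelial identity genes, 0.62 for 14 endothelial transcription factors and 0.59 for 14 mural markers. It was 0.41 for 11 junction genes, 0.38 for 8 oligodendrocyte markers, 0.37 for 18 barrier transport genes and 0.34 for 13 Wnt pathway genes. It was 0.33 for 6 red cell genes, 0.3 for 8 caveola genes and 0.21 for 14 VEGF and angiopoietin genes. It was 0.0 for 8 neuron markers and for all genes. By region, the oligodendrocyte median was 0.53 in amygdala, 0.32 in hypothalamus and -0.05 in frontal cortex.

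Of 30 relations between 2 regions of the same animal, that of Cldn5 in amygdala and frontal cortex passed the threshold. Over 30 animals the deviation of Cldn5 in amygdala correlated with that in frontal cortex at r = 0.60 (permutation p = 0.00052, adjusted p = 0.0156 over 30 relations of 10 genes and 3 pairs of regions). Spearman's rho was 0.55 (permutation p = 0.00183, adjusted p = 0.0549), which misses the threshold. Without the 2 animals farthest from the median, r was 0.56 (adjusted p = 0.0474). The permutation shuffled all animals freely and did not count the group means removed before it, so these p can be too small. For amygdala and hypothalamus Cldn5 had r = 0.48 and rho = 0.42 over 28 animals, and for hypothalamus and frontal cortex r = 0.46 and rho = 0.37 (adjusted permutation p = 0.141 for both r). Without the 2 farthest animals these fell to 0.40 and 0.32. Flt1 in amygdala and hypothalamus had r = 0.38 (permutation p = 0.0453, adjusted p = 0.34) and rho = 0.45 (permutation p = 0.0162, adjusted p = 0.243), a rho above that of Cldn5 for this pair. Whether Cldn5 differs from the other members was not tested. No other relation passed, although 25 of the 30 correlations were above 0, with a median r of 0.18 for amygdala and hypothalamus, 0.09 for amygdala and frontal cortex and 0.16 for hypothalamus and frontal cortex. Group means were removed first, so the contrast that picked the genes does not enter.

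**Figure D5:**
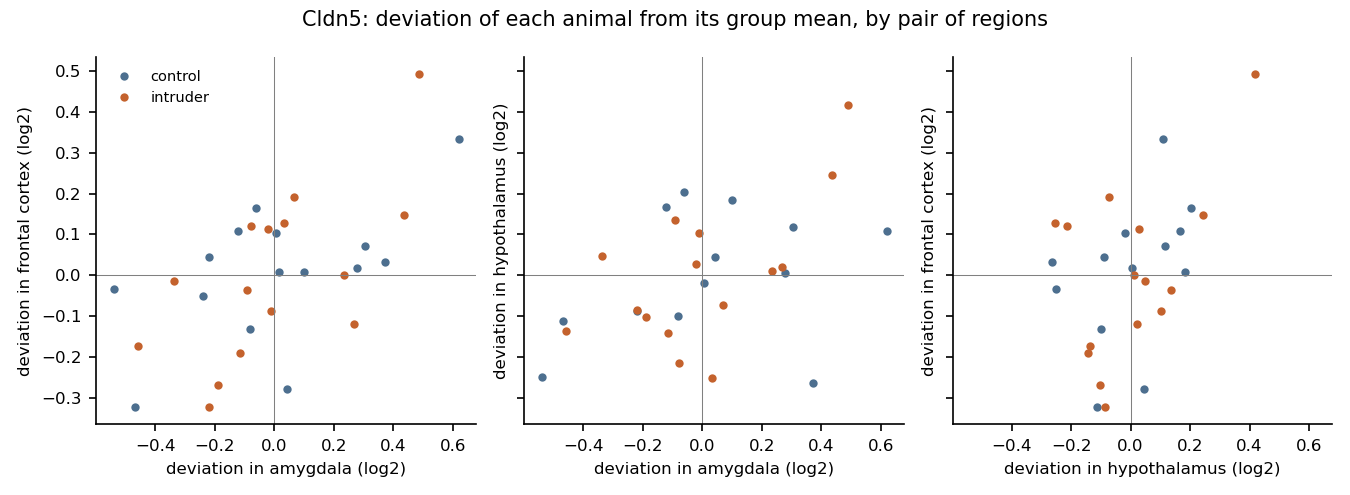
Deviation of Cldn5 from its group mean (log2 CPM) in each animal, 1 pair of regions a panel, with controls in blue and intruder animals in orange. The points rise from lower left to upper right in the pair of amygdala and frontal cortex (r = 0.60, 30 animals), and more loosely in the other pairs (r = 0.48 and 0.46, 28 animals).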

How the data were processed

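The authors deposited counts, whole reads per Ensembl gene and library, per the file header, for 37991 genes in 90 libraries of stranded poly(A)-selected RNA. The submitters' processing notes name CASAVA 1.8.2, TopHat2 2.0.8, HTSeq 0.6.1, edgeR 3.2.4, R 3.0.0 and build NCBIM37. The table's 5 other rows (8.63% to 14.46% without a feature, 9.79% to 11.5% not unique) were left out, and 0 columns were unused. Symbols and exon lengths came from GENCODE M21 by identifier (32919 named), promoter windows from RefSeq. Counting ambiguity between Ly6 paralogs could lower their values.

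Counts were tested with edgeR 4.0.16 under R 4.3.3 (filterByExpr, TMM scaling, quasi-likelihood F test, Benjamini-Hochberg over all genes tested), 6 groups of a region per fit, 18 groups for differences between regions, and the animal as a block for regional levels. Replicates are libraries with separate replicate numbers, taken as separate animals, and regions were matched to an animal by that number. Alternatives were DESeq2 1.42.0, limma voom 3.58.1, other scalings, no filter, blocks and leaving out libraries. The steps were tested on simulated data. Correlations used log2 CPM with a prior count of 2 and 100000 permutations. Named genes are all 10 members, up to 3 called genes of each list in each direction, and the 10 genes most like the members. Cdh5, Tek, Kdr, Hba-a1, Col1a1, Ly6c2 and the genes most like Cd34 were named outside this rule, after their values were seen. The members and lists were chosen with earlier results of these data known, among them the lower Ly6c1 in amygdala and Cd34 and Rgs5 in hypothalamus at 120 min, which are no independent support. Same-numbered libraries of the 2 conditions had correlated deviations of -0.43 to 0.49, and in no comparison was every pair over 0.1, so numbers were not taken as pairs.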

Additional observations from a re-analysis of the deposited data

Results flagged for a closer look

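Within a group, 1 library stood far from the others in 8 of 170 combinations of a member and a group of 5 or 6 libraries, and chance alone gives about 1 in 20. The amygdala gave 5 of them. Abcb1a was high in intruder 6 at 120 min (31.4 CPM, group median 21.4), the library with the controls' first index. Cav1 was high in control 1 at 120 min (19.3 CPM, median 15.5) and in control 5 at 60 min (22.0 CPM, median 17.2). Abcg2 was low in control 4 at 30 min (14.5 CPM, median 18.2) and Ly6c1 low in control 2 at 60 min (24.1 CPM, median 27.9). In hypothalamus Ocln was low in control 4 at 120 min (8.21 CPM, median 9.2), and Ly6a was low in intruder 2 at 30 min (14.0 CPM, median 14.6). In frontal cortex Abcg2 was high in intruder 2 at 120 min (23.4 CPM, median 20.1).

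The intruder effect at 120 min differed between amygdala and frontal cortex by a test of the difference for Ly6c1 (-0.75, log2) and Ocln (-0.52). With the animal as a block Ocln was not called (adjusted p = 0.102, edgeR), with limma voom neither was (0.0519 and 0.0699), and the lower Ly6c1 in amygdala was known when the genes were chosen. In hypothalamus every intruder library lay above the mean of the controls at 30 min and below it at 120 min for Abcb1a and Abcg2. The log2 ratios of mean CPM were 0.14 and -0.77 for Abcb1a, a difference of -0.90, and 0.11 and -0.46 for Abcg2, a difference of -0.57. These differences were not tested, and their 120 min values are those by which the genes were picked.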

How the results depend on the processing

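Of 321 recomputed counts of called members or relations, 302 kept within 1.5 times the first value and 19 did not. Counts that stayed at 0 are among the 302. The count of 2 members in amygdala at 120 min became 1 without a filter on low counts, 1 with limma voom, 4 with DESeq2, 0 with the first index as a block and 0 with the 2 groups alone, and ran from 0 to 4 over fits that left out 1 library. All genes called there went from 93 to 12, 409, 0 and 0 without a filter, with DESeq2, with the index block and with the 2 groups alone, to 199 with the replicate block, and from 6 to 218 when 1 library was left out. In hypothalamus they went from 34 to 100 with DESeq2, 6 with the replicate block, 0 with the 2 groups alone and 19 to 53 without 1 library. For time in controls they went from 40 to 196 with DESeq2, 20 without a filter, 0 with the index block and 16 to 133 without 1 library in amygdala, and from 32 to 162 with DESeq2 and 9 to 31 without 1 library in hypothalamus. Without control 1 of 60 min the change of the effect with time called 60 genes in amygdala, against 0. The 8 members called in hypothalamus at 120 min, a description, became 4 with the replicate number as a block (replicate block) and 0 with the 2 groups alone, which have fewer samples to estimate the spread. Same-numbered animals of the 2 conditions share only a number. The replicate block changed no other count of called members except the difference between regions at 120 min. There the block was the animal (2 members became 1). That count was 0 with limma voom. For time in controls DESeq2 called 1 member in amygdala and 1 in hypothalamus, against 0. The cause of these changes was not tested. Of 468 recomputed values of called members 422 kept their side of the threshold and 46 lost it, none reversed. Scaling by RLE size factors or the upper quartile kept the sign of every member in both regions at 120 min, amygdala and hypothalamus. With 3 to 6 animals a group, the number of animals limits the precision, and the first index block could not be fitted for frontal cortex at 120 min.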

Other observations

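The frontal cortex level of Cd34 had a company of its own, examined after its values were seen. Over 32 frontal cortex libraries, with group means removed, the genes whose deviations were most like those of Cd34 were Osbpl1a (r = 0.91), Mb21d2 (0.91), Hapln4 (0.90), Rab11fip5 (0.90), Camk2g (0.90), Plxdc1 (0.90), Sytl2 (0.89), Nfix (0.89), Nudt4 (0.89) and Mkx (0.89). None of these 10 is on the endothelial or other cell type lists used here. Over amygdala libraries the same genes had r with Cd34 from -0.79 (Mb21d2) to 0.56 (Nudt4). The correlations share libraries and depth, were picked as the highest of all genes, and carry no test.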
